A study of Homo sapiens with 6 samples.

Results

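Tight junction transcripts were examined in HT-29 cells after siRNA treatment against the lncRNAs HOXA-AS3 or HOXB-AS3. The 9 genes described are the claudins CLDN1, CLDN2, CLDN3, CLDN4, CLDN7 and CLDN12, the occludin gene OCLN, the zonula occludens scaffold gene TJP1 and the junctional adhesion molecule gene F11R. They were chosen by name, through the Entrez identifiers of the gene rows, and they are 9 of the 27434 gene rows of the series. Each had a row of its own, and 0 of the 9 shared a row with another gene.

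HT-29 is an established human colorectal adenocarcinoma line that grows as an epithelium. The cells were treated with a non-targeting siRNA pool (siNT), a pool against HOXA-AS3 (siHOXA-AS3) or a pool against HOXB-AS3 (siHOXB-AS3), and RNA was sequenced in 2 libraries of each group. The labels give 10 nM siRNA and 48 h for all 6 libraries, and the published methods give another dose and another RNA extraction reagent for the same experiment. The labels do not say that the 2 libraries of a group came from separate cultures, so p-values here measure only the spread between these libraries.

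Tight junctions close the space between neighbouring epithelial cells near their apical side and set which ions and molecules pass between the cells. Claudins are small membrane proteins that form the strands, and a given claudin can make them tighter or open a channel in them. Occludin and junctional adhesion molecules lie in or beside the strands, and scaffold proteins such as ZO-1, the product of TJP1, tie them to the actin cytoskeleton. In the colon the barrier is held mainly by sealing claudins, while the pore-forming CLDN2 is low in the healthy colon epithelium and higher in inflamed tissue.

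The sequences upstream of 4 of these genes are shown because CLDN1, CLDN2, CLDN4 and OCLN had the largest log2 fold changes whose 95% interval left out 0, or came nearest to it, in a comparison with siNT. Each is the 250 bases before an annotated RefSeq start site (build GRCh38.p14), written 5′ to 3′ on the gene's own strand. The windows are chr3:190322447-190322696 on the minus strand for CLDN1, chrX:106899914-106900163 on the plus strand for CLDN2, chr7:73830746-73830995 on the plus strand for CLDN4 and chr5:69492297-69492546 on the plus strand for OCLN. CLDN2 and OCLN each have another annotated start, which is not printed. Capitals mark matches to the AP-1 letters TGANTCA in CLDN2 and CLDN4 and to the E-box letters CAGGTG in OCLN, searched on both strands.
CLDN1: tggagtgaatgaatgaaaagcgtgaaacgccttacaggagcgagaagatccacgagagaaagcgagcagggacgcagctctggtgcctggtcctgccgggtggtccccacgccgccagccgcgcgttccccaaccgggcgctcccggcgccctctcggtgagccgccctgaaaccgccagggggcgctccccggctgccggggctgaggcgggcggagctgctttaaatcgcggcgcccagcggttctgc
CLDN2: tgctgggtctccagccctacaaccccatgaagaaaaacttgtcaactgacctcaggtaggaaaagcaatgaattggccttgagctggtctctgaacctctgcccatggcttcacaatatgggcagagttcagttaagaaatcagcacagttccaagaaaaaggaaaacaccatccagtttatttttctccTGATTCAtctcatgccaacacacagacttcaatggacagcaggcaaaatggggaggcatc
CLDN4: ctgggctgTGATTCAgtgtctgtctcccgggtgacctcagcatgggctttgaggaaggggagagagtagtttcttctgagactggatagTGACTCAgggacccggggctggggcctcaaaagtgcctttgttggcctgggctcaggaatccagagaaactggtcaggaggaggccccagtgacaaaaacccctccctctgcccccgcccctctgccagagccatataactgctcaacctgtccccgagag
OCLN: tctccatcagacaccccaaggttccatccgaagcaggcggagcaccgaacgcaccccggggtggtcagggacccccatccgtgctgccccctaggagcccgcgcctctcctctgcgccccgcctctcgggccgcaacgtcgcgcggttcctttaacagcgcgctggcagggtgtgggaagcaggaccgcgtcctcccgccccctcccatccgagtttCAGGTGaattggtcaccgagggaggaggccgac

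The AP-1 letters lay 60 bases before the printed start of CLDN2, and 242 and 161 bases before that of CLDN4. Among all 35116 RefSeq promoter windows of 250 bases, 6.57% held TGANTCA, as did 2 of the 14 windows of 8 junction genes (F11R is not among them), 1 of CLDN2 and 1 of CLDN4. CAGGTG was in 17.5% of all windows and in 4 of these 14, which belong to CLDN7, OCLN and TJP1. In OCLN it lay 33 bases before the printed start, and a CLDN7 window held 4 matches. The letters CCATAAA (CDX), GGAATG (TEAD) and AACCNGTT (grainyhead), which were in 2.30%, 11.9% and 1.49% of all windows, matched in 0 of the 14 windows. The printed window of CLDN1 held 0 matches to any of the 5 motifs. GC content of these windows was 68.8% in CLDN1 and OCLN, 58.8% in CLDN4 and 46.0% in CLDN2, beside a median of 58.0% over all windows.

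Total expected counts per library ranged from 15998518 to 26263938, and 13034 genes passed the filter on low counts, with all 9 junction genes among them. HOXB-AS3 was at 27.0 and 29.3 FPKM in siNT and at 6.05 and 7.96 FPKM in siHOXB-AS3 (log2 fold change -1.96, adjusted p = 0.0678 in edgeR). HOXA-AS3 had 38 and 18 counts in siNT and 12 in each siHOXA-AS3 library (log2 fold change -1.09, adjusted p = 0.711 in edgeR). Both lncRNAs are antisense to HOX genes and the strand setting of the counting was not given in the sources used here. FPKM scales the fragments of a gene by its transcript length and by library size, so levels of different genes can be set side by side. It does not correct for GC content. The libraries of siHOXA-AS3 differed more from each other than those of the other groups: the SD over genes of their log2 difference was 0.73, beside 0.42 in siNT and 0.37 in siHOXB-AS3. Expected counts were not whole numbers for CLDN3 and CLDN4 in 5 of the 6 libraries and for OCLN and F11R in 6 of 6. This means that RSEM divided some reads between each of these genes and other rows, and their levels carry that uncertainty. In those 5 libraries the fractional parts of CLDN3 and CLDN4 add up to whole numbers, as with 2278.95 and 6411.05 in siNT replicate 1. Some reads were thus divided between CLDN3 and CLDN4.

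Of 8 colon epithelium markers 7 had a mean of at least 1 FPKM, and CDX2 was at 0.10 to 0.34 FPKM. EPCAM, whose product binds claudin-7, was at 289 and 278 FPKM in siNT, 270 and 296 in siHOXA-AS3 and 159 and 153 in siHOXB-AS3 (log2 fold change -0.81 against siNT, adjusted p = 0.101 in edgeR, and -0.82 against siHOXA-AS3, adjusted p = 0.0471). Between the knockdowns, where EPCAM passed the adjusted threshold, 1.57% of all genes did. CDH1, the E-cadherin gene, was at 183 and 175 FPKM in siNT, 223 and 182 in siHOXA-AS3 and 130 and 122 in siHOXB-AS3. Its log2 fold change in siHOXB-AS3 against siNT was -0.46 (adjusted p = 0.281 in edgeR). In the same comparison it was 0.20 for KRT8, 0.14 for KRT18, -0.11 for KRT20, -0.16 for VIL1, -0.48 for LGALS4 and -0.78 for CDX2. The summed level of the 8 markers was 4397 and 4737 FPKM in siNT, 5619 and 3758 in siHOXA-AS3 and 4186 and 4166 in siHOXB-AS3. Their part in the junction results was not tested.

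Of 6 fibroblast markers 3 had 0 counts in every library, and their summed level was 0.05 to 0.15 FPKM. Of 6 endothelial markers ESAM was at 25.8 to 39.7 FPKM, and the other 5 summed to 0.01 to 0.07 FPKM. ESAM is also on the list of other junction membrane proteins, and the source of its transcripts was not tested. The leukocyte markers summed to 971 and 857 FPKM in siNT, 1075 and 1183 in siHOXA-AS3 and 780 and 728 in siHOXB-AS3. Nearly all of this was LYZ, the lysozyme gene, at 718 to 1172 FPKM. CD68 was at 9.74 to 15.7 FPKM, CD14 at 0.42 to 1.21 and CD79A at 0.04 to 0.49. The pan-leukocyte marker PTPRC was at no more than 0.10 FPKM and CD3E at no more than 0.06 FPKM.

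Of the 9 genes, CLDN7 and CLDN4 had the highest levels in the control cells. In siNT, CLDN7 was at 165 ± 16.3 FPKM (SD, n = 2), CLDN4 at 153 ± 14.7, TJP1 at 111 ± 3.95 and CLDN3 at 86.5 ± 15.9. The ranges of CLDN7 and CLDN4 overlapped, and those of TJP1 and CLDN3 stood apart from their neighbours in the order. F11R at 63.1 ± 2.10 FPKM, CLDN12 at 62.3 ± 7.56 and CLDN1 at 57.2 ± 3.65 followed. Both F11R libraries were above both CLDN1 libraries, and CLDN12 overlapped each of these genes. OCLN was at 16.9 ± 2.50 FPKM and CLDN2 was last at 1.44 ± 0.113 FPKM. CLDN2 was therefore counted on 59 to 195 fragments per library, against 13119 to 22624 for TJP1.

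**Figure D1:**
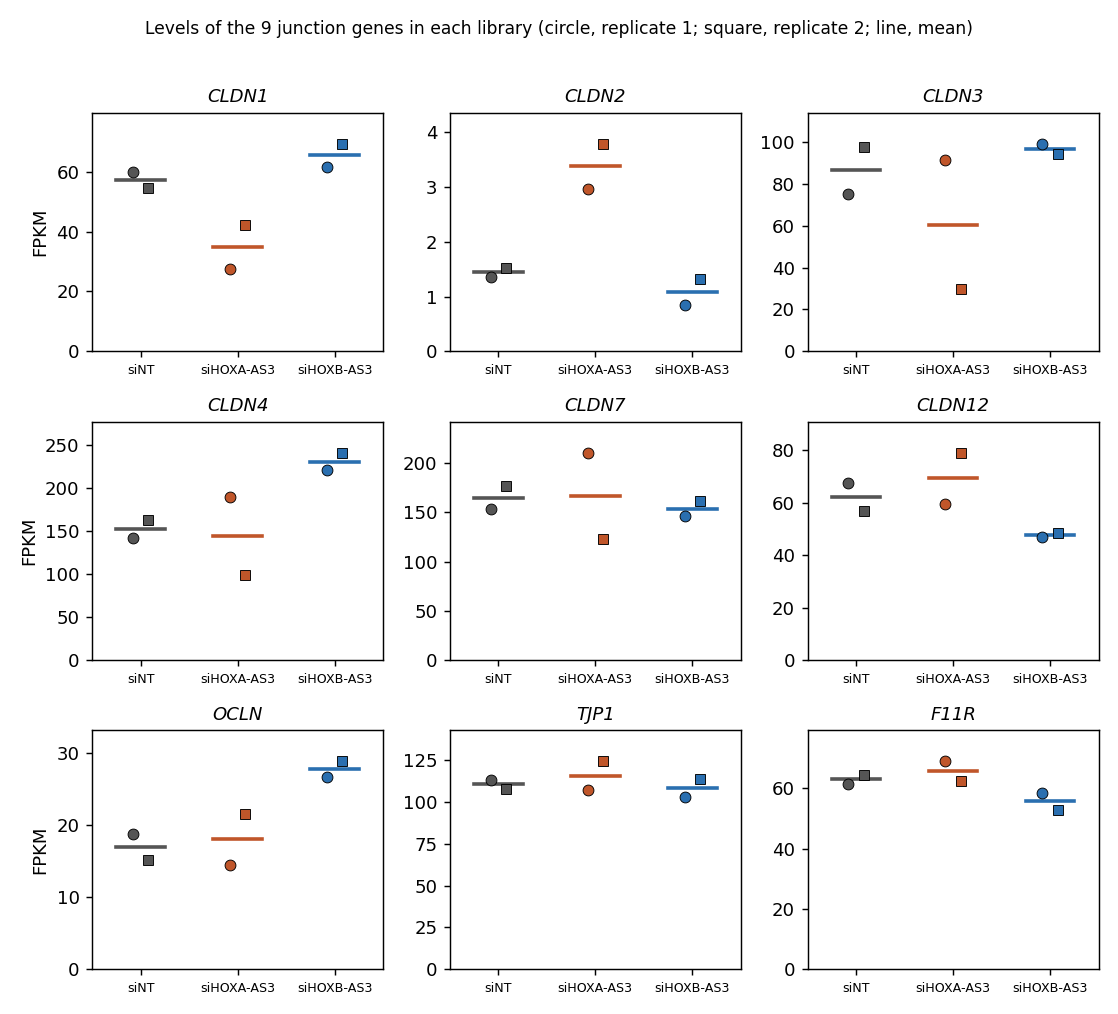
FPKM of each of the 9 junction genes (y axis, from 0, own scale in each panel) in the 2 libraries of siNT, siHOXA-AS3 and siHOXB-AS3; points are libraries and lines are group means. CLDN2 was at 2.97 and 3.79 FPKM in siHOXA-AS3 and at or below 1.52 in the other 4 libraries, while the siHOXA-AS3 libraries lay far apart for CLDN3, CLDN4 and CLDN7.

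Of the sealing claudins, which make the strands tighter, CLDN1 was at 59.8 and 54.6 FPKM in siNT, 27.6 and 42.2 in siHOXA-AS3 and 61.6 and 69.3 in siHOXB-AS3. Both siHOXA-AS3 libraries were below the other 4, and both siHOXB-AS3 libraries were the highest. The fitted log2 fold change of CLDN1 in siHOXA-AS3 against siNT was -0.70 (SE 0.226, a ratio of 0.615), with an adjusted p of 0.641 in edgeR's quasi-likelihood test. Bulk RNA cannot tell fewer cells that express CLDN1 from less CLDN1 RNA per cell, and this holds for each gene that follows. In siHOXB-AS3 the log2 fold change against siNT was 0.24 (SE 0.225, adjusted p = 0.737 in edgeR).

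CLDN3, also a sealing claudin, was at 75.3 and 97.8 FPKM in siNT, 91.3 and 29.8 in siHOXA-AS3 and 99.2 and 94.1 in siHOXB-AS3. A single library, siHOXA-AS3 replicate 2, lay below all others, and the 2 siHOXA-AS3 libraries differed by 1.61 on the log2 CPM scale, the widest gap between replicates among the 9 genes. The log2 fold change of CLDN3 against siNT was -0.51 (SE 0.462) in siHOXA-AS3, and it was 0.09 without siHOXA-AS3 replicate 2 and -1.53 without siHOXA-AS3 replicate 1. The direction for CLDN3 in siHOXA-AS3 was thus set by which library was kept. In siHOXB-AS3 the log2 fold change was 0.21 (SE 0.460, adjusted p = 0.911 in edgeR).

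CLDN4, which limits the passage of cations in several epithelia, was at 143 and 164 FPKM in siNT, 190 and 98.9 in siHOXA-AS3 and 221 and 242 in siHOXB-AS3. The siHOXA-AS3 values lay on both sides of siNT, and the siHOXB-AS3 values were above all other libraries. In siHOXB-AS3 the log2 fold change was 0.64 (SE 0.292, a ratio of 1.56, adjusted p = 0.461 in edgeR). In siHOXA-AS3 it was -0.08 (SE 0.292, adjusted p = 0.997 in edgeR), and 0.32 without siHOXA-AS3 replicate 2.

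CLDN7, a claudin found along the lateral membrane as well as at the junction, was at 153 and 176 FPKM in siNT, 211 and 123 in siHOXA-AS3 and 147 and 161 in siHOXB-AS3. The 3 groups overlapped. Its log2 fold changes against siNT were 0.05 (SE 0.259) in siHOXA-AS3 and -0.05 (SE 0.259) in siHOXB-AS3, with adjusted p-values of 0.998 and 0.968 in edgeR.

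CLDN2, which forms a pore for cations and water, was at 1.36 and 1.52 FPKM in siNT, 2.97 and 3.79 in siHOXA-AS3 and 0.85 and 1.32 in siHOXB-AS3. These values rest on 100 and 68 counts in siNT, 195 and 181 in siHOXA-AS3 and 59 and 81 in siHOXB-AS3. Both siHOXA-AS3 libraries were above the other 4. The log2 fold change of CLDN2 in siHOXA-AS3 was 1.24 (SE 0.301, 95% confidence interval 0.53 to 1.96), a ratio of 2.37, with an unadjusted p of 0.00458 and an adjusted p of 0.517 in edgeR. In siHOXB-AS3 it was -0.36 (SE 0.308, adjusted p = 0.713 in edgeR).

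CLDN12, a claudin without the usual carboxy-terminal motif that binds scaffold proteins, was at 67.6 and 56.9 FPKM in siNT, 59.6 and 79.1 in siHOXA-AS3 and 47.1 and 48.4 in siHOXB-AS3. Both siHOXB-AS3 libraries were the lowest. The log2 fold change in siHOXB-AS3 was -0.34 (SE 0.189, adjusted p = 0.553 in edgeR), and in siHOXA-AS3 it was 0.17 (SE 0.189, adjusted p = 0.997 in edgeR).

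OCLN encodes occludin, a MARVEL-domain protein of the strands. It was at 18.7 and 15.2 FPKM in siNT, 14.5 and 21.6 in siHOXA-AS3 and 26.6 and 28.8 in siHOXB-AS3. Both siHOXB-AS3 libraries were above the other 4. The log2 fold change in siHOXB-AS3 was 0.76 (SE 0.231, 95% confidence interval 0.21 to 1.31), a ratio of 1.69, with an unadjusted p of 0.0137 and an adjusted p of 0.252 in edgeR. In siHOXA-AS3 it was 0.10 (SE 0.230, adjusted p = 0.997 in edgeR).

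F11R encodes JAM-A, an immunoglobulin-type adhesion protein, and was at 61.6 and 64.6 FPKM in siNT, 68.9 and 62.3 in siHOXA-AS3 and 58.5 and 53.0 in siHOXB-AS3. Although both siHOXB-AS3 libraries were the lowest, the log2 fold change was -0.13 (SE 0.146, 95% confidence interval -0.48 to 0.21), with an adjusted p of 0.791 in edgeR. TJP1 was at 113 and 108 FPKM in siNT, 108 and 124 in siHOXA-AS3 and 103 and 114 in siHOXB-AS3. It had the narrowest spread of the 9 genes, with the highest library 1.21 times the lowest. Its log2 fold changes were 0.08 (95% confidence interval -0.27 to 0.43) in siHOXA-AS3 and 0.01 (95% confidence interval -0.34 to 0.36) in siHOXB-AS3.

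**Figure D2:**
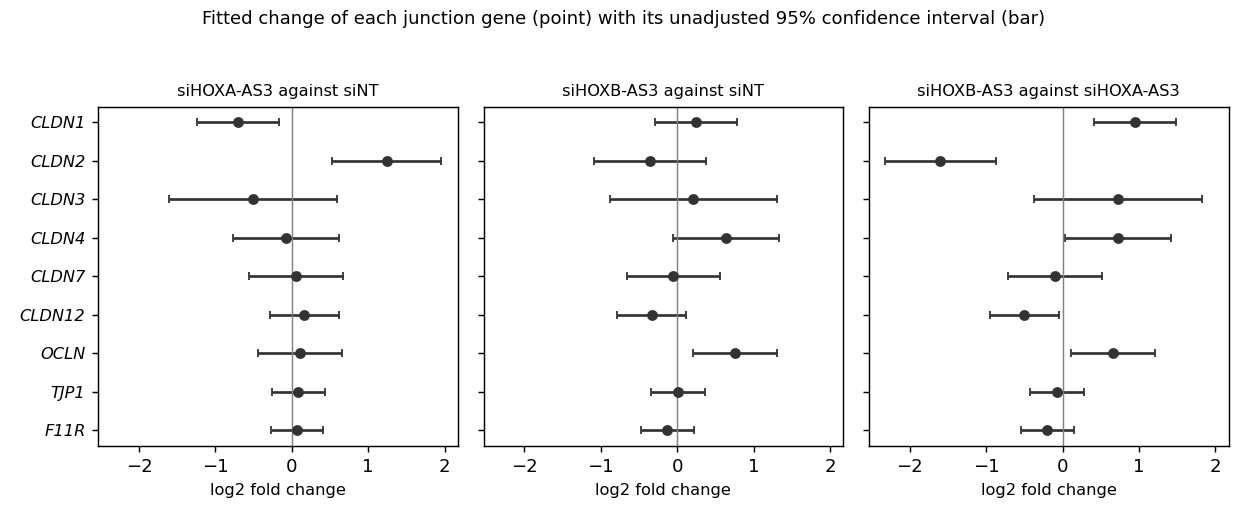
Fitted log2 fold change (x axis) of each of the 9 genes (rows) in the 3 comparisons; points are edgeR estimates and bars are unadjusted 95% confidence intervals, from all 6 libraries. Against siNT the interval left out 0 for CLDN1 and CLDN2 in siHOXA-AS3 and for OCLN in siHOXB-AS3, and 0 of the 9 genes passed the adjusted threshold of 0.05 in any comparison.

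In siHOXA-AS3 against siNT, 0 of the 9 genes passed an adjusted p of 0.05, as did 0% of the 13034 genes tested. At an unadjusted p below 0.05, 2 of the 9 passed (CLDN1 lower, CLDN2 higher), beside 6.16% of all genes. Both siHOXA-AS3 libraries lay above both siNT libraries for 1 gene, CLDN2, beside 12.5% of all genes, and below both for 1 gene, CLDN1, beside 16.1%. The other 7 overlapped. DESeq2 called 0 of the 9 genes and 0.453% of all genes. The median log2 fold change was 0.07 over the 9 genes and 0.01 over all genes tested.

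The count depended on how the difference between the siHOXA-AS3 libraries was handled. With a trend on GC content removed from each library, 2 of the 9 genes were called, beside 4.35% of all genes: CLDN1 was lower (log2 fold change -0.77, adjusted p = 0.00509 in edgeR) and CLDN2 higher (1.31, adjusted p = 0.0302 in edgeR). Without siHOXA-AS3 replicate 1, 7 of the 9 genes were called, beside 30.3% of all genes, and without siHOXA-AS3 replicate 2, 3 of the 9, beside 17.9%. In these fits the remaining siHOXA-AS3 library is assumed to vary as the other groups do. CLDN1 and CLDN2 were called in both, with log2 fold changes of -0.43 and 1.42 without siHOXA-AS3 replicate 1 and -1.04 and 1.06 without siHOXA-AS3 replicate 2. CLDN7 was called in both with opposite signs, -0.39 without siHOXA-AS3 replicate 1 and 0.40 without siHOXA-AS3 replicate 2. CLDN3, CLDN4, CLDN12 and OCLN were called only without siHOXA-AS3 replicate 1, among the alternatives run for this comparison, and each changed sign without siHOXA-AS3 replicate 2.

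In siHOXB-AS3 against siNT, 0 of the 9 genes were called, beside 0.0614% of all genes. OCLN was the 1 gene with an unadjusted p below 0.05, beside 12.2% of all genes. Both siHOXB-AS3 libraries lay above both siNT libraries for 3 genes on the log2 CPM scale (CLDN1, CLDN4 and OCLN), beside 30.9% of all genes, and below both for 2 genes (CLDN12 and F11R), beside 30.9%. These shares are close to the background. DESeq2 called 0 of the 9 genes and 2.73% of all genes. The median log2 fold change was 0.01 over the 9 genes and -0.01 over all genes tested.

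OCLN, CLDN4 and CLDN12 made up the 3 genes called in 4 alternatives of this comparison. When only the siNT and siHOXB-AS3 libraries entered the fit, these 3 of 9 were called, beside 23.3% of all genes, with adjusted p-values in edgeR of 2.43e-05 for OCLN, 5.10e-05 for CLDN4 and 0.0151 for CLDN12. With the GC trend removed the same 3 were called, beside 15.1% of all genes, with log2 fold changes of 0.73, 0.74 and -0.37. Leaving out siHOXA-AS3 replicate 1 or siHOXA-AS3 replicate 2, which are not in the contrast but enter the shared estimate of the spread, gave the same 3 genes, beside 22.7% and 22.6% of all genes. The log2 fold changes in these 2 fits were 0.76 for OCLN, 0.65 and 0.64 for CLDN4 and -0.33 and -0.34 for CLDN12. They were near those of the fit on all 6 libraries, which were 0.76, 0.64 and -0.34. Leaving out a siNT or a siHOXB-AS3 library left 1 library in that group, and almost no gene was then called, among the 9 or among all genes tested. The log2 fold changes in these fits ran from 0.62 to 0.91 for OCLN, 0.54 to 0.75 for CLDN4 and -0.45 to -0.21 for CLDN12.

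The 2 knockdowns share their siNT libraries, so they were also compared with each other directly. In siHOXB-AS3 against siHOXA-AS3, 0 of the 9 genes were called at the adjusted threshold, beside 1.57% of all genes. The smallest adjusted p-values in edgeR were 0.0593 for CLDN2, with a log2 fold change of -1.60 (SE 0.304, 95% confidence interval -2.32 to -0.88), and 0.0995 for CLDN1, with 0.94 (SE 0.227, 95% confidence interval 0.40 to 1.48). At an unadjusted p below 0.05, 5 of the 9 passed, beside 18.4% of all genes. They were CLDN1, CLDN4 (0.72) and OCLN (0.66), higher in siHOXB-AS3, and CLDN2 and CLDN12 (-0.50), lower in siHOXB-AS3. For CLDN1, CLDN3, CLDN4 and OCLN the lower siHOXB-AS3 library was above the higher siHOXA-AS3 library, which is 4 of 9 beside 22.8% of all genes. CLDN2, CLDN12 and F11R were lower in both, which is 3 of 9 beside 22.5%. The 2 genes whose groups overlapped were CLDN7 and TJP1.

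CLDN1 and CLDN2 were called between the knockdowns with DESeq2, beside 6.04% of all genes, with adjusted p-values of 0.0111 and 0.000875. They were also the 2 genes called without a filter on low counts, beside 3.99% of all genes. With the GC trend removed 6 of the 9 genes were called (CLDN1, CLDN2, CLDN3, CLDN4, CLDN12 and OCLN), beside 27.5% of all genes. Without siHOXA-AS3 replicate 1, 7 of the 9 were called, beside 37.8%, and without siHOXA-AS3 replicate 2, 5 of the 9, beside 36.0%. CLDN7 was in both sets with log2 fold changes of 0.34 and -0.44, opposite in sign. TJP1 and F11R were called in 0 of the 17 alternatives of each of the 3 comparisons.

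**Figure D3:**
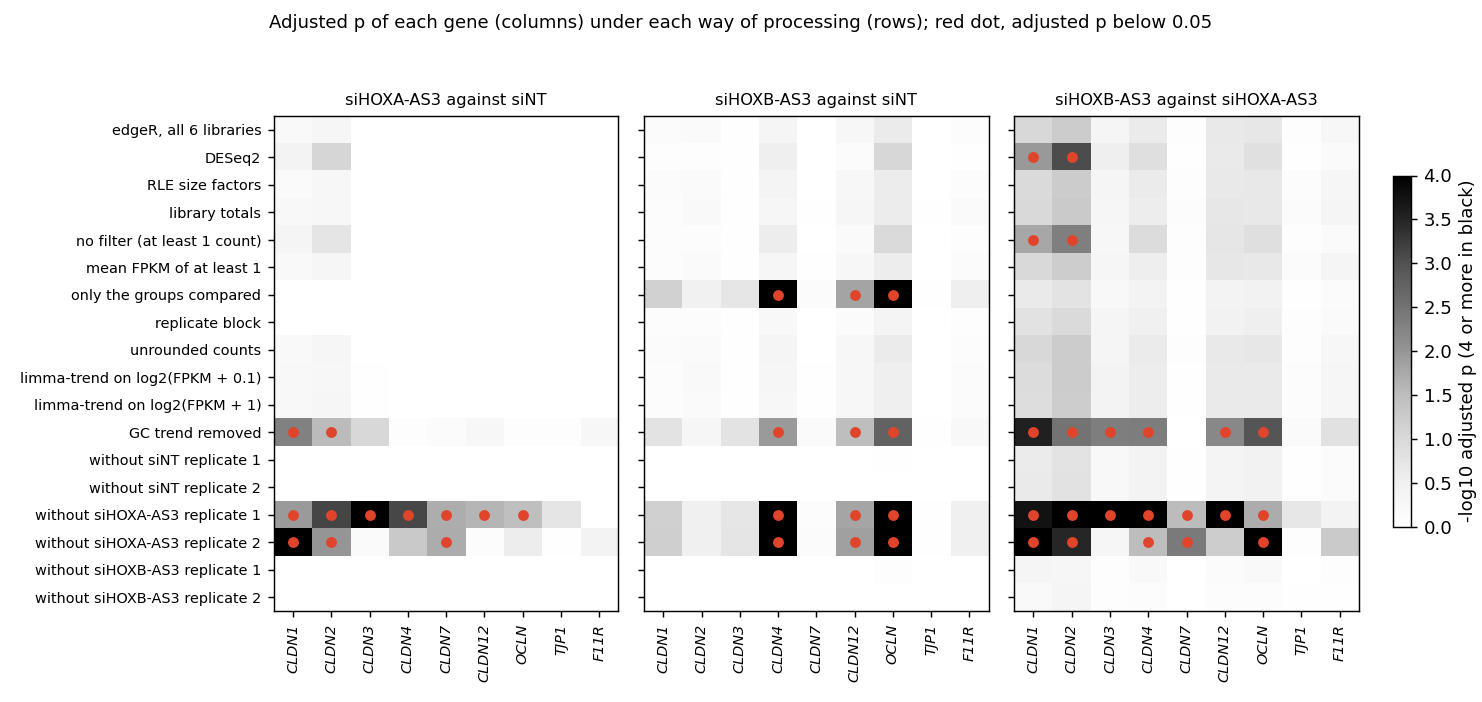
Adjusted p of the 9 genes (columns) under edgeR on all 6 libraries (top row) and 17 alternatives (other rows) in the 3 comparisons; darker is a smaller adjusted p on a -log10 scale and a red dot marks an adjusted p below 0.05. The top row holds 0 dots, dots gather in the rows that leave out a siHOXA-AS3 library, remove the GC trend or use only the siNT and siHOXB-AS3 libraries, and TJP1 and F11R have none.

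The difference between replicates followed the GC content of the transcripts in these 9 genes. OCLN, CLDN12, TJP1 and CLDN1 had 41.9% to 42.9% GC, F11R 50.7%, CLDN2 52.5%, CLDN4 56.1%, CLDN7 59.1% and CLDN3 69.2%. In siHOXA-AS3 the log2 CPM of replicate 1 minus that of replicate 2 was 1.61 for CLDN3, 0.94 for CLDN4 and 0.78 for CLDN7, and it was -0.22 to -0.62 for the 4 genes of lowest GC content. Over the 9 genes, which share the same 2 libraries, Pearson's r with GC content was 0.931 in siHOXA-AS3, -0.945 in siNT and 0.135 in siHOXB-AS3. The gaps in siNT were much smaller, with the widest at 0.39 for CLDN3. Over all genes tested with a GC value r was 0.762 in siHOXA-AS3, -0.422 in siNT and 0.153 in siHOXB-AS3. The part of GC content in the siHOXA-AS3 results of CLDN3, CLDN4 and CLDN7 was not tested beyond the alternative above, in which these 3 genes had adjusted p-values of 0.0994, 0.857 and 0.776 in edgeR. In siHOXA-AS3 CLDN2 lay off the pattern, with a gap of -0.36 at an intermediate GC content, on 195 and 181 counts. In siNT its gap of -0.16 lay between those of F11R (-0.08) and CLDN4 (-0.21), its neighbours in GC content.

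**Figure D4:**
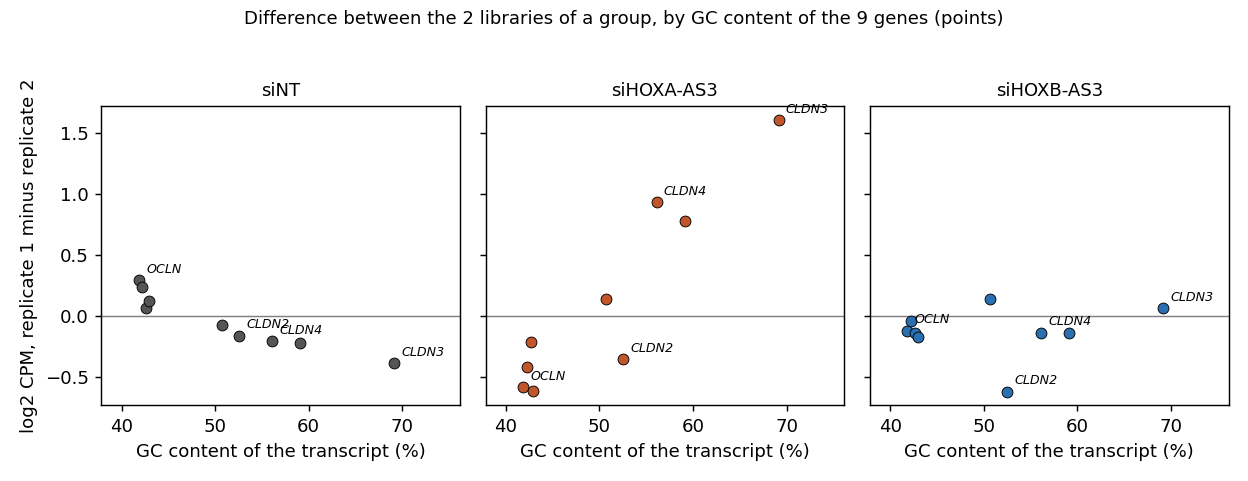
Log2 CPM of replicate 1 minus replicate 2 (y axis) against transcript GC content in percent (x axis) for the 9 genes (points) in each group. In siHOXA-AS3 the gap ranges from -0.62 for CLDN1 to 1.61 for CLDN3, and in siHOXB-AS3 every gene but CLDN2 (-0.62) lies between -0.18 and 0.14.

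The make-up of the claudin pool was taken from FPKM, which is per length but not corrected for GC content. GC content ran from 42.2% in CLDN12 to 69.2% in CLDN3, and its part in the make-up was not tested. The 6 claudins described held 98.7% to 99.4% of the summed FPKM of 24 claudin genes in every library, and the 18 others held 0.57% to 1.28%. CLDN4 held 28.3% and 29.4% of the pool in siNT, 32.2% and 25.9% in siHOXA-AS3 and 38.0% and 39.0% in siHOXB-AS3. CLDN7 held 30.4% and 31.7% in siNT, 35.8% and 32.2% in siHOXA-AS3 and 25.2% and 26.0% in siHOXB-AS3. CLDN4 was thus the leading claudin in both siHOXB-AS3 libraries and CLDN7 in the other 4. CLDN2 held 0.269% and 0.273% of the pool in siNT, 0.504% and 0.994% in siHOXA-AS3 and 0.146% and 0.213% in siHOXB-AS3.

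The ratio of the sealing CLDN1 to the pore-forming CLDN2 was 44.0 and 35.9 in siNT, 9.30 and 11.1 in siHOXA-AS3 and 72.5 and 52.5 in siHOXB-AS3. The 3 groups did not overlap in this ratio, which was chosen after the values of both genes were known and was given no test. It was close in the 2 siHOXA-AS3 libraries although each gene differed between them. The ratio of OCLN to TJP1 was 0.165 and 0.141 in siNT, 0.135 and 0.173 in siHOXA-AS3 and 0.258 and 0.254 in siHOXB-AS3.

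**Figure D5:**
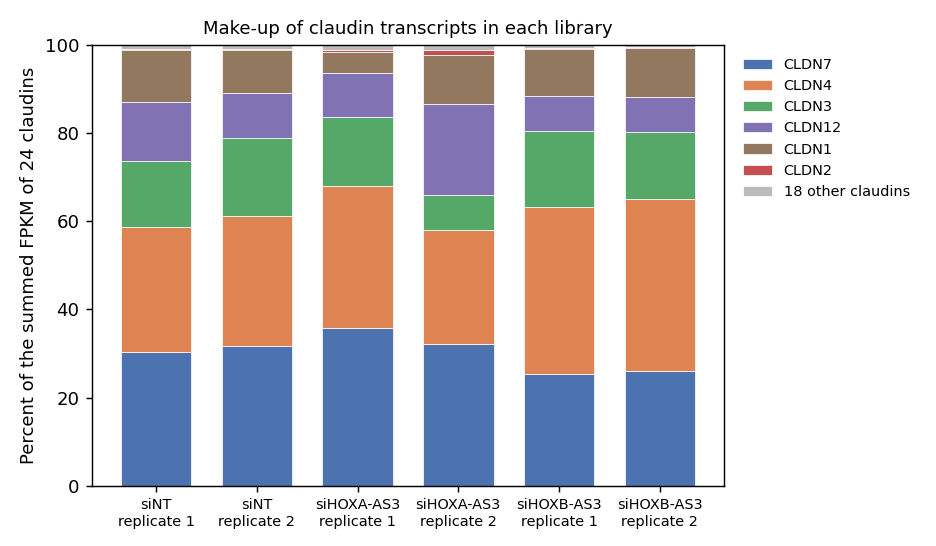
Percent of the summed FPKM of 24 claudin genes (y axis, 0 to 100) held by each of the 6 claudins described and by the 18 others together, in the 6 libraries. CLDN4 takes 38.0% and 39.0% in siHOXB-AS3 and at most 32.2% elsewhere, and CLDN12 and CLDN3 take 20.7% and 7.83% in siHOXA-AS3 replicate 2. FPKM was not corrected for GC content.

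CLDN3 and CLDN4 lie side by side on chromosome 7, with 0 RefSeq genes annotated between them, and their log2 CPM values had a Pearson's r of 0.875 over the 6 libraries. The most opposed members were CLDN4 and CLDN12, with r of -0.965 over the same 6 libraries. These values describe 6 libraries that fall into 3 groups, and GC content differs between CLDN4 (56.1%) and CLDN12 (42.2%). CLDN3 (69.2% GC) and CLDN4 both had wide gaps between the siHOXA-AS3 replicates (1.61 and 0.94), and their expected counts share divided reads. Whether their position has a part in their r was not tested. CLDN2 had the widest range of log2 CPM among the 9 genes, 2.08, and TJP1 the narrowest, 0.25. Among 10960 genes whose FPKM averaged 1 or more, those whose log2 CPM was most like that of CLDN2 over the 6 libraries included KLF12 (r = 0.998) and ENDOD1 (r = 0.979). KLF12 was at 0.86 and 0.93 FPKM in siNT, 1.36 and 1.62 in siHOXA-AS3 and 0.60 and 0.84 in siHOXB-AS3.

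The other genes of the pathway were 69 genes in 4 lists, of which 14 had 0 counts in all libraries and 44 passed the filter. In each of the 3 comparisons 0 of the 44 were called, beside the same shares of all genes as above (0%, 0.0614% and 1.57%). Among the 18 other claudins 9 had 0 counts throughout and 3 were tested, CLDN9, CLDN15 and CLDN23. CLDN9 was at 0.99 and 1.29 FPKM in siNT, 2.28 and 1.40 in siHOXA-AS3 and 1.74 and 0.85 in siHOXB-AS3. CLDN15, a cation channel of the gut, was at 2.85 and 3.01 FPKM in siNT, 4.11 and 2.87 in siHOXA-AS3 and 2.64 and 2.11 in siHOXB-AS3. Neither passed the test: the log2 fold changes against siNT were 0.72 and 0.25 for CLDN9 and 0.12 and -0.36 for CLDN15, with adjusted p-values in edgeR from 0.670 to 0.997.

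Of 21 scaffold and polarity genes 18 were tested, and 4 of these had an unadjusted p below 0.05 in siHOXB-AS3 against siNT, 3 higher and 1 lower. The background at that threshold was 12.2%. PARD6B, a subunit of the apical polarity complex, was at 7.14 and 6.45 FPKM in siNT, 6.92 and 13.0 in siHOXA-AS3 and 14.1 and 16.2 in siHOXB-AS3. Both siHOXB-AS3 libraries were above the others, and the log2 fold change against siNT was 1.20 (SE 0.308, adjusted p = 0.189 in edgeR). AMOTL2, an angiomotin-type scaffold that binds Hippo pathway proteins, was at 7.15 and 7.51 FPKM in siNT, 7.87 and 5.61 in siHOXA-AS3 and 13.0 and 16.5 in siHOXB-AS3. Its log2 fold change in siHOXB-AS3 was 1.05 against siNT (SE 0.234, adjusted p = 0.151 in edgeR) and 1.16 against siHOXA-AS3 (SE 0.234, adjusted p = 0.0688 in edgeR). YBX3, a Y-box factor that binds ZO-1, was at 158 and 150 FPKM in siNT, 200 and 162 in siHOXA-AS3 and 211 and 238 in siHOXB-AS3, and its log2 fold change in siHOXB-AS3 was 0.59 (SE 0.164, adjusted p = 0.213 in edgeR). PARD6B and AMOTL2 were called in siHOXB-AS3 against siNT in 6 of 17 alternatives and YBX3 in 4 of 17. For all 3 genes these included the fit on only the groups compared, beside 23.3% of all genes, and the GC alternative, beside 15.1%. They also included the fits without a siHOXA-AS3 library, whose shares of all genes are given above. PARD6B and AMOTL2 were also called with DESeq2, beside 2.73% of all genes, and without a filter on low counts, beside a smaller share. The gene that was lower was CGNL1, paracingulin, at 0.68 and 0.71 FPKM in siNT and 0.29 and 0.22 in siHOXB-AS3 (log2 fold change -1.37, adjusted p = 0.114 in edgeR). CGNL1 was named after its values were seen, since its mean FPKM was below 1.

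The remaining named scaffold genes had smaller differences. In siHOXA-AS3 against siNT the log2 fold change was -0.33 for PRKCZ and 0.33 for PRKCI, the atypical protein kinases C of the polarity complex, and -0.26 for TJP3, the ZO-3 gene. PARD6A had -0.47 in siHOXB-AS3 against siNT. The unadjusted p of these 4 genes in those comparisons was 0.205, 0.252, 0.326 and 0.261 in edgeR's quasi-likelihood fit across all genes.

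Among 10 other membrane proteins of the junction 7 were tested, and 0 had an unadjusted p below 0.05 in either comparison with siNT, beside 6.16% (siHOXA-AS3) and 12.2% (siHOXB-AS3) of all genes. ILDR1, an angulin of tricellular contacts, was at 1.78 and 1.22 FPKM in siNT, 1.92 and 1.48 in siHOXA-AS3 and 0.99 and 0.83 in siHOXB-AS3. Its log2 fold change in siHOXB-AS3 was -0.73 against siNT (SE 0.310, adjusted p = 0.416 in edgeR) and -0.89 against siHOXA-AS3 (adjusted p = 0.196 in edgeR). Of 20 regulators of junction genes and junction tension 16 were tested, and likewise 0 passed that threshold in either comparison, beside the same shares. GRHL2, a grainyhead factor of epithelia, was at 16.1 and 17.8 FPKM in siNT, 14.7 and 11.8 in siHOXA-AS3 and 19.6 and 20.4 in siHOXB-AS3. The 3 groups did not overlap for GRHL2. Against siNT both siHOXA-AS3 libraries were lower, beside 16.1% of all genes, and both siHOXB-AS3 libraries were higher, beside 30.9%. Its log2 fold change was 0.63 between the knockdowns (SE 0.181, adjusted p = 0.136 in edgeR). HNF4A, a nuclear receptor of the gut epithelium, was at 4.94 and 5.99 FPKM in siNT, 6.85 and 5.28 in siHOXA-AS3 and 4.15 and 3.94 in siHOXB-AS3, with a log2 fold change of -0.61 between the knockdowns (SE 0.222, adjusted p = 0.213 in edgeR). The median log2 fold change over the 44 genes was 0.05 in siHOXA-AS3 and 0.06 in siHOXB-AS3 against siNT, beside 0.01 and -0.01 over all genes tested.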

How the data were processed

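Transcriptomes of HT-29 cells under 3 siRNA pools (10 nM and 48 h per the labels) were analysed from 2 libraries per pool. The authors ran RSEM with a RefSeq annotation and deposited unnormalized expected counts. The TPM values and FPKM values in the same deposited files are scaled by transcript length and library size. The submitters' processing notes name the build hg19. Aligner, RSEM version and strand setting: not given in the sources used here. Among the 27434 rows, 627 stand for more than 1 gene (6.02% to 6.62% of counts). Rows that lacked a symbol (up to 0.0473% of counts) were kept and entered the tests where they passed the filter on low counts. No pair of libraries was identical (smallest chi-square per degree of freedom 7.07).

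Rounded expected counts were tested with edgeR 4.0.16 (R 4.3.3): filterByExpr (minimum count 10), TMM, a robust quasi-likelihood fit on all 6 libraries and Benjamini-Hochberg adjustment over 13034 genes, with a threshold of 0.05. Group overlap was judged on log2 CPM. Levels are FPKM. On simulated counts for 13034 genes with 200 changed 4-fold, edgeR recovered 89.5% for both comparisons with siNT (12 and 13 false calls), and DESeq2 89.5% and 90.0% (32 and 32 false calls). Among the tested claudins, OCLN, TJP1 and F11R the largest ratio to siNT was 2.37, for CLDN2 in siHOXA-AS3. Recovery of changes smaller than 4-fold was not tested, so these percentages cannot say how many such changes were missed. The part of the wide spread between the siHOXA-AS3 libraries in recovery was not tested either. HOXB-AS3 itself, at a log2 fold change of -1.96 in siHOXB-AS3, was not called (adjusted p = 0.0678 in edgeR).

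The 9 genes, the other gene lists and the GC alternative were chosen with earlier results of these data known. Named genes are the 9, list genes called in any comparison, in each comparison the 3 highest and 3 lowest list genes by log2 fold change with a mean FPKM of at least 1, the 3 genes most like the junction gene of widest range, and the targeted lncRNAs. Of these, 1 gene is not reported here. Promoter windows came from RefSeq (GRCh38.p14, 8 of the 9 genes matched, F11R not) and GC content from GENCODE v29 transcripts, with a value for 96.8% of genes tested.

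Alternatives were DESeq2 1.42.0, library totals, RLE size factors, a filter of only 1 count, a filter of 1 on mean FPKM, a replicate block, only the groups compared, unrounded counts, limma 3.58.1 (limma-trend) on log2(FPKM + 0.1) and log2(FPKM + 1), a loess trend on GC content (span 0.3) taken out of each library, and leaving out each of the 6 libraries. The lone library of a group is then assumed to vary as the other groups do. TPM was used as an alternative unit for levels.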

Additional observations from a re-analysis of the deposited data

How the results depend on the processing

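The number of the 9 genes called changed from 0 under these alternatives. In siHOXA-AS3 against siNT it was 2 with the GC trend removed and 0 to 7 leaving out single libraries (7 without siHOXA-AS3 replicate 1, 3 without siHOXA-AS3 replicate 2). In siHOXB-AS3 against siNT it was 3 with only the groups compared, 3 with the GC trend removed and 0 to 3 when a library was left out (3 without either siHOXA-AS3 library). Between the knockdowns it was 2 with DESeq2, 2 without a filter, 6 with the GC trend removed and 0 to 7 leaving out single libraries (7 without siHOXA-AS3 replicate 1, 5 without siHOXA-AS3 replicate 2). Counts of the other junction genes, 44 of which were tested in all 6 libraries, are given with the share of all genes called. In siHOXA-AS3 against siNT they were 0 to 15 when a library was left out (15 beside 30.3% without siHOXA-AS3 replicate 1, 9 beside 17.9% without siHOXA-AS3 replicate 2). In siHOXB-AS3 against siNT they were 3 with DESeq2 (2.73%), 3 without a filter (1.5%), 11 with only the groups compared (23.3%), 6 with the GC trend removed (15.1%) and 0 to 11 when a library was left out (11 beside 22.7% and 22.6% without siHOXA-AS3 replicate 1 or 2). Between the knockdowns they were 2 with DESeq2 (6.04%), 2 without a filter (3.99%), 10 with the GC trend removed (27.5%) and 0 to 18 when a library was left out (15 beside 37.8% without siHOXA-AS3 replicate 1, 18 beside 36.0% without siHOXA-AS3 replicate 2). The cause of these changes was not tested.

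The labels do not say whether the replicate numbers pair the samples. The differences between replicates correlated at -0.347, -0.139 and 0.150 between pairs of groups. They also followed GC content, in opposite directions in siNT and siHOXA-AS3, so these correlations cannot decide whether the samples were paired. With the replicate block 0 of the 9 genes were called in each comparison, and over all genes 0 were called in both comparisons with siNT and 10 between the knockdowns, beside 0, 8 and 204 without the block.

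Directions changed in 24 alternative values of the 9 genes. In siHOXA-AS3 against siNT, values with a library left out ranged from -1.53 to 0.0872 for CLDN3, -0.62 to 0.32 for CLDN4, -0.39 to 0.40 for CLDN7, -0.0526 to 0.36 for CLDN12, -0.21 to 0.36 for OCLN, -0.0228 to 0.19 for TJP1 and -0.0027 to 0.14 for F11R. CLDN7 was at -0.0338 and -0.0333 with limma-trend at pseudocounts of 0.1 and 1. In siHOXB-AS3 against siNT the ranges were -0.16 to 0.0704 for CLDN7 and -0.0607 to 0.0820 for TJP1. CLDN7 was at 0.0657 and TJP1 at -0.0266 with the GC trend removed, and TJP1 was at -0.0369 with library totals, -0.0096 with a mean FPKM of at least 1, and -0.0310 and -0.0308 with limma-trend at 0.1 and 1. Between the knockdowns the ranges were -0.44 to 0.34 for CLDN7 and -0.18 to 0.0338 for TJP1.

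For the other named genes with a library left out, values in siHOXA-AS3 against siNT ranged from -0.0928 to 0.66 for PRKCI, -0.0725 to 0.47 for ILDR1, -0.60 to 0.41 for PARD6A, -0.0049 to 0.35 for HNF4A, -0.37 to 0.12 for AMOTL2 and -0.14 to 0.34 for CLDN15. PARD6A was at 0.0012 with RLE size factors, 0.0136 without a filter and 0.0068 with only the groups compared. In siHOXB-AS3 against siNT they ranged from -0.36 to 0.10 for TJP3, -0.0668 to 0.23 for PRKCI and -0.36 to 0.66 for CLDN9, and PRKCZ was at 0.0419 with the GC trend removed. Between the knockdowns they ranged from -0.10 to 0.35 for TJP3, -0.59 to 0.16 for PRKCI and -0.87 to 0.14 for PARD6A. The order of levels in siNT was the same in TPM.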
